A study of Mus musculus with 6 samples.

Results

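A set of 10 de novo lipogenesis genes was followed by RNA-seq of inguinal white fat (iWAT): *Acly*, *Acaca*, *Acacb*, *Fasn*, *Me1*, *Elovl6*, *Scd1*, *Scd2*, *Srebf1* and *Mlxipl*. Each member is the entry of the expression table whose gene name equals that symbol, which gave 10 of the 55573 genes listed, and all 10 were abundant enough to be tested. Of the 6 mice, 3 (Wt) were unmodified C57BL/6NTac animals bred in the same house, and the other 3 (mutant) were homozygous for a global knock-in of K283Q/K288R in *Thra*, the gene of thyroid hormone receptor alpha, on the same strain. The substitutions remove sites of SUMO conjugation, and the knock-in was made in C57BL/6NTac embryonic stem cells with FLP/FRT cassette exchange, so every cell type of the fat pad carried it. All 6 mice were male, 3 months old, kept on regular chow and given no treatment, and 1 library of total RNA was made from the inguinal fat of each.

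De novo lipogenesis builds fatty acids from carbohydrate carbon. Citrate leaves the mitochondria and is cleaved to acetyl-CoA, a carboxylase turns acetyl-CoA into malonyl-CoA, fatty acid synthase joins these units to palmitate with reducing power from NADPH, and an elongase and desaturases make the longer and monounsaturated fatty acids of stored triglyceride. Transcription factors known to act on these enzyme genes include SREBP1 and ChREBP. SREBP1 is held in the endoplasmic reticulum until it is escorted to the Golgi and cut. ChREBP responds to glucose metabolites. Thyroid hormone is a known inducer of several of the enzymes.

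*Srebf1*, the gene of SREBP1, fell in the mutant mice to 0.573 times its Wt mean and was the only member past the 5% false discovery rate. Of the 8 enzyme genes, 5 had a log2 difference of 0.43 or more in the other direction, led by *Elovl6*, and 4 of these (*Acly*, *Acaca*, *Elovl6* and *Scd2*) were higher in each mutant mouse than in any Wt mouse, but none of them passed. *Scd1* and *Fasn*, which made up most of the members' reads, overlapped between the genotypes, as did *Acacb*, *Me1* and *Mlxipl*. The member share past the threshold, 1 of 10, stood beside 8.11% of all 16868 genes tested (5.5% higher and 2.61% lower in mutant). The share whose genotypes did not overlap was 4 higher and 1 lower of 10, beside 14.9% higher and 15.7% lower (30.6% in either direction) over all genes tested.

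Promoter windows are shown for the regulator that fell, for *Fasn* as the central enzyme, and for *Elovl6* and *Acly*, the enzyme genes with the largest differences. They are RefSeq sequences of build GRCm38.p6 (mm10), each running from 250 bases before to 50 bases after an annotated start, and are written 5′ to 3′ on the strand of the gene. Capitals mark any match, on either strand, to one of 5 motifs: CCAAT (the NF-Y box), GGGCGG (the Sp1 box), CACGTG (an E-box), AGGTCA (the half-site of thyroid hormone and other nuclear receptors) and TCACNCCAC (a sterol regulatory element). *Srebf1* has 3 annotated starts, and its deposited value sums over them.
Srebf1 upstream promoter, chr11:60222532-60222831, minus strand: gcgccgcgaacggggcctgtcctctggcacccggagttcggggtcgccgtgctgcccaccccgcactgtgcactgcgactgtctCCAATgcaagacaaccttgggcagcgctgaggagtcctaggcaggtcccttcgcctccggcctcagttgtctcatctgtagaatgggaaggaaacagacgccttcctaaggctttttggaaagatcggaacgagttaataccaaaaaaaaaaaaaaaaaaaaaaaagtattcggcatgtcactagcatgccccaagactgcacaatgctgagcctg
Srebf1 middle promoter, chr11:60220578-60220877, minus strand: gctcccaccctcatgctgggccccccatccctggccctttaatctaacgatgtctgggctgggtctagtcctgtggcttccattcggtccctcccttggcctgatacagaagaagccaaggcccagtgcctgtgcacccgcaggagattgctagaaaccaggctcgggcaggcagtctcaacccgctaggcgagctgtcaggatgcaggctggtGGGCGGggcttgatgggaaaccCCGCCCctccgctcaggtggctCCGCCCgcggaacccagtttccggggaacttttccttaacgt
Srebf1 downstream promoter, chr11:60210422-60210721, minus strand: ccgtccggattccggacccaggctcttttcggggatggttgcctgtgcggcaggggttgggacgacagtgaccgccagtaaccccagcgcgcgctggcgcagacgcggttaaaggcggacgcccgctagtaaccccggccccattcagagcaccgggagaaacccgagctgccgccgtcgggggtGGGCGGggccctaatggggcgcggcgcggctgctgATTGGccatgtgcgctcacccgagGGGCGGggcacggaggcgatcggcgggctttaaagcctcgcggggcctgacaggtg
Fasn promoter, chr11:120824498-120824797, minus strand: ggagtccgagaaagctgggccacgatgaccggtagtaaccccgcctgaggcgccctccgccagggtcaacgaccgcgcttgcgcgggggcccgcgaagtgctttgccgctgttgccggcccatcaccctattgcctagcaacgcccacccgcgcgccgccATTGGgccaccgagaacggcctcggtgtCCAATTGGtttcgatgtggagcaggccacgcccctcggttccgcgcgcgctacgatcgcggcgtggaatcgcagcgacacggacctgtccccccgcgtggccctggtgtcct
Elovl6 promoter, chr3:129532136-129532435, plus strand: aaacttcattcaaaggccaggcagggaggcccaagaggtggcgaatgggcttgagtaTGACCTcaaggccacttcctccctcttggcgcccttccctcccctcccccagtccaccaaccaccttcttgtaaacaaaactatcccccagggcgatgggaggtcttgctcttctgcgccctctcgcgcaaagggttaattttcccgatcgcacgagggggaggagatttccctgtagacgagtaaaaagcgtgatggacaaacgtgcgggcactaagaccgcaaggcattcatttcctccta
Acly promoter, chr11:100527951-100528250, minus strand: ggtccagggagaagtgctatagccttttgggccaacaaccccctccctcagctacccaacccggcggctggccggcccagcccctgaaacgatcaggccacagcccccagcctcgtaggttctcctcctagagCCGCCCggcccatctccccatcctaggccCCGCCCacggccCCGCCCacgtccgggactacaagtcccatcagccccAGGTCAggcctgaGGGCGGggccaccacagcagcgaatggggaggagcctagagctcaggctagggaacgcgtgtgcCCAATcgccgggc
In all, 8 members had 12 windows in the RefSeq table, and *Scd1* and *Scd2* had none there. CCAAT was found in 7 of the 12 windows, from 6 members, against 37.4% of all 32851 windows, and GGGCGG in 5 windows of 4 members against 35.7%. In the *Fasn* window 2 of its 3 CCAAT matches overlap on opposite strands. AGGTCA was found in 3 windows (*Elovl6*, *Acacb* and *Acly*) against 16.3% of all windows, CACGTG in 1 window of *Mlxipl* against 7.15%, and TCACNCCAC in 1 other window of *Mlxipl* against 1.24%. These matches describe the letters only.

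Values below are normalized CPM, read counts scaled to the library total (CPM) and to a further factor per library that the authors applied. Each library held 19607423 to 24228381 reads on genes, so that 3 reads were worth 0.126 to 0.157 normalized CPM, far below the level of any member. No label gives a batch, the feeding state at collection or a shared litter, so p-values rest on the spread between these mice only. In limma that spread is adjusted by a trend of variance on level over all genes tested. The genotype is a coding substitution, which a level of *Thra* RNA cannot check. Differences are mutant minus Wt on the log2(value + 0.5) scale, with the standard error (SE) and adjusted p of limma over all genes tested, n = 3 mice per genotype.

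The 10 mature adipocyte markers were all detected, as the label of fat tissue requires. Their summed level was 23937 to 35122 in Wt and 22594 to 35398 in mutant mice. In limma 0 of 10 passed the threshold (2 of 10 at an unadjusted p under 0.05). These markers are shared by fat depots and cannot check that each pad was purely inguinal. Detection alone cannot test the label, since markers of other cell types, given below, were detected too. The 8 skeletal muscle markers summed to 10921 to 23391 in Wt and 17602 to 27440 in mutant mice, so muscle RNA was also abundant. Several markers of other cell types differed between the genotypes. *Adipoq*, the gene of adiponectin, read 2219, 1580 and 1557 in Wt and 2141, 1619 and 1332 in mutant mice, and *Plin1*, which coats the lipid droplet, 2317, 1782 and 1543 against 2030, 1443 and 1307. Both overlapped between the genotypes. *Cfd* did not (1 of 10 markers, beside 30.6% of all genes tested), and was lower in each mutant mouse, with means of 7063 in Wt and 4537 in mutant mice. Higher mutant means were seen for *Lpl* (6481 and 9559), *Lep* (681 and 1097) and *Retn* (550 and 831). Of the 10 markers, 4 had a positive log2 difference, so the sum joins moves in both directions. On lymphocyte markers 1 library stood apart: the 8 markers summed to 5.50 in mutant mouse 1, against 455 and 672 in mutant mice 2 and 3 and 335 to 881 in Wt mice. Without that library 1 member was still called, *Srebf1*, beside 1043 genes called among all genes tested. The log2 differences of the enzyme genes with higher mutant levels were then smaller. They were 0.44 for *Acly*, 0.47 for *Acaca*, 0.66 for *Elovl6*, 0.32 for *Scd2*, 0.31 for *Me1* and 0.13 for *Fasn*. Leaving out Wt mouse 1 instead made them larger, at 0.81, 0.72, 1.02, 0.54, 0.71 and 0.55 in the same order, and *Srebf1* was not called. In RNA from whole fat, fewer cells of a type and less RNA per cell cannot be told apart.

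Levels of the members spanned a wide range. Per kilobase of exon, mean levels were 6612 for *Scd1*, 731 for *Fasn*, 173 for *Acly*, 128 for *Me1*, 99.3 for *Scd2*, 52.5 for *Srebf1*, 23.6 for *Elovl6*, 21.7 for *Mlxipl*, 21.1 for *Acacb* and 16.0 for *Acaca*. Down to *Elovl6* each gene was above the next one in all 6 mice. The last 4 had levels that crossed from mouse to mouse, since *Elovl6* was above *Mlxipl* in 3 of 6 mice, *Mlxipl* above *Acacb* in 3 and *Acacb* above *Acaca* in 4. By reads alone, with no correction for length, *Scd1* ranked 1 and *Fasn* 8 among all genes of the tissue.

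**Figure D1:**
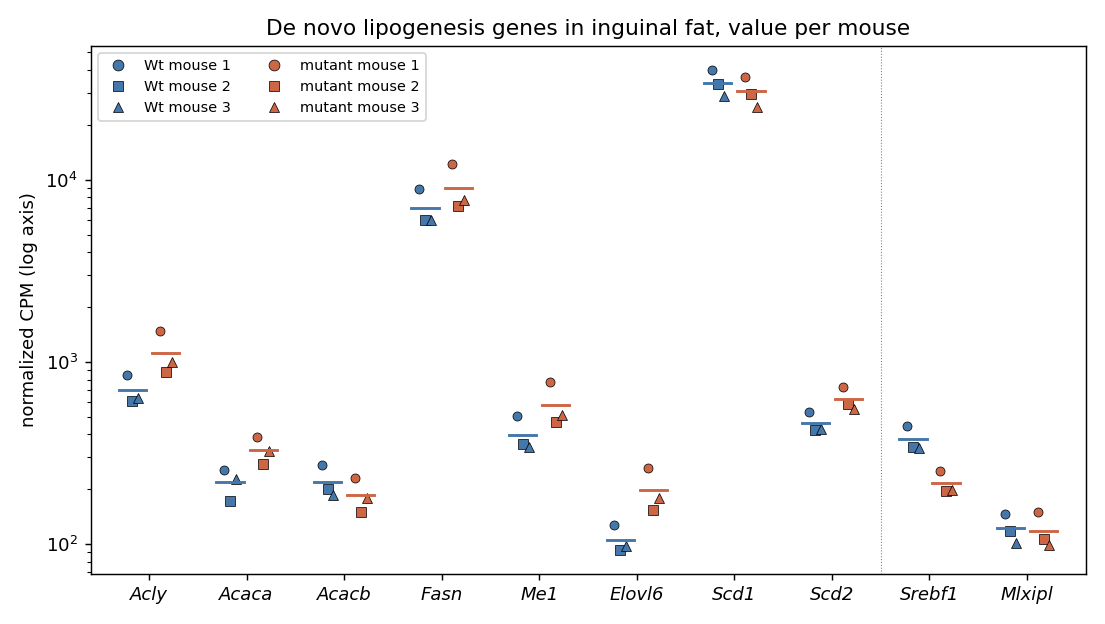
Normalized CPM (log axis) of the 10 genes in each of 6 mice; blue marks Wt, orange mutant, the marker shape the mouse number and the horizontal line the mean of 3 mice, and the dotted line separates enzymes from regulators. Acly, Acaca, Elovl6 and Scd2 have every mutant mouse above every Wt mouse, Srebf1 every mutant mouse below, and mouse 1 is the highest of its genotype for each gene.

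*Acly* (chr11:100476353-100528000, minus strand), which cleaves citrate to acetyl-CoA, read 851, 610 and 637 in Wt mice 1 to 3 and 1486, 884 and 1000 in mutant mice 1 to 3. The lowest mutant value lay just above the highest Wt value, so the genotypes did not overlap. The means were 699 ± 132 and 1123 ± 320 (SD, n = 3), a log2 difference of 0.66 (SE 0.24, limma adjusted p = 0.156).

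*Acaca* (chr11:84129672-84401651, plus strand) encodes the cytosolic acetyl-CoA carboxylase that supplies malonyl-CoA for synthesis. It read 255, 172 and 227 in Wt and 388, 274 and 325 in mutant mice. Again each mutant mouse was above each Wt mouse, with mutant mouse 2 nearest to the Wt range. The means were 218 ± 42.4 and 329 ± 57.3 (SD, n = 3), and the log2 difference was 0.60 (SE 0.19, limma adjusted p = 0.116).

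*Acacb* (chr5:114146535-114250761, plus strand), whose mitochondria-bound carboxylase makes the malonyl-CoA that restrains fatty acid oxidation, read 272, 200 and 185 in Wt and 230, 151 and 178 in mutant mice. The genotypes overlapped, and the log2 difference was -0.23 (SE 0.20, 95% interval -0.72 to 0.26, limma adjusted p = 0.504). The 2 carboxylase genes were therefore set against each other within each mouse. The ratio of *Acacb* to *Acaca*, with no correction for length, was 1.07, 1.16 and 0.815 in Wt and 0.592, 0.551 and 0.548 in mutant mice. The ratio was thus lower in every mutant mouse than in any Wt mouse. Which gene is the higher depends on length: per kilobase of exon the means of *Acacb* and *Acaca* were 22.8 and 12.8 in Wt and 19.4 and 19.3 in mutant mice. The log2 ratio differed by -0.83, with p = 0.1 in a two-sided exact permutation test, the smallest p that 3 mice against 3 allow.

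*Fasn* (chr11:120805846-120824547, minus strand), the multi-domain synthase that makes palmitate, read 8948, 5982 and 5992 in Wt and 12130, 7179 and 7782 in mutant mice. Wt mouse 1 was above mutant mice 2 and 3, so the genotypes overlapped, and the mean of the mutant mice was 1.30 times that of Wt. The log2 difference was 0.36 (SE 0.42, 95% interval -0.65 to 1.37, limma adjusted p = 0.619). The SE from the spread of *Fasn* alone was 0.30, since limma's trend of variance on level raises the SE of the most abundant genes.

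*Me1* (chr9:86581371-86695953, minus strand) encodes cytosolic malic enzyme, which gives NADPH to the synthase and is a classic thyroid hormone-induced gene in liver. It read 502, 356 and 340 in Wt and 774, 465 and 509 in mutant mice. Only Wt mouse 1 reached into the mutant range, where it was above mutant mouse 2. The log2 difference was 0.53 (SE 0.24, 95% interval -0.05 to 1.11, limma adjusted p = 0.242).

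*Elovl6* (chr3:129532355-129638495, plus strand), which elongates palmitate to stearate, had the largest difference of the enzyme genes. It read 127, 93.3 and 97.2 in Wt and 262, 154 and 179 in mutant mice. All mutant values were above all Wt values, with a gap between 127 and 154. The means were 106 ± 18.7 and 198 ± 57.0 (SD, n = 3), 1.87 times higher, and the log2 difference was 0.88 (SE 0.22, 95% interval 0.34 to 1.41, limma adjusted p = 0.0647). It missed the threshold in limma and passed it when libraries were scaled by their read totals only, where 2 of 10 members were called beside 7.61% of all genes tested.

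The desaturases put the double bond into stearate and palmitate. *Scd1* (chr19:44394455-44407879, minus strand), the main isoform of fat and liver, read 40049, 33656 and 28655 in Wt and 36824, 29692 and 25205 in mutant mice. The genotypes overlapped almost fully, and the log2 difference was -0.16 (SE 0.89, 95% interval -2.29 to 1.97, limma adjusted p = 0.919), with an SE of 0.21 from the spread of *Scd1* alone. *Scd2* (chr19:44293674-44306864, plus strand), a paralog of *Scd1* that neighbours it on chromosome 19, read 533, 421 and 431 in Wt and 729, 589 and 555 in mutant mice. Here each mutant mouse was above each Wt mouse. Its means were 461 ± 62.1 and 624 ± 92.1 (SD, n = 3) and its log2 difference 0.43 (SE 0.15, limma adjusted p = 0.152). As paralogs of similar coding sequence, the pair may share reads. The submitters name RSEM 1.2.15 for the processing. The part of the reads that it divided between the 2 genes is not given in the sources used here.

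Within each mouse, the ratio of *Scd2* to *Scd1* reads was 0.0133, 0.0125 and 0.0150 in Wt and 0.0198, 0.0198 and 0.0220 in mutant mice. The ratio was small in all mice and higher in every mutant mouse than in any Wt mouse. The log2 ratio differed by 0.60 (p = 0.1, two-sided exact permutation test, the smallest possible).

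The members' total was mostly *Scd1* and *Fasn*. All 10 members took 5.14%, 4.34% and 4.10% of reads in Wt and 5.12%, 4.32% and 3.93% in mutant mice, which overlapped. The 8 members without *Scd1* and *Fasn* took 0.309%, 0.239% and 0.262% in Wt and 0.411%, 0.307% and 0.332% in mutant mice. On this share Wt mouse 1 lay between mutant mice 2 and 3, and its Wilson 95% interval (0.307% to 0.311%) overlapped that of mutant mouse 2 (0.305% to 0.310%), both of which cover counting error only.

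Of the regulators, *Srebf1* (chr11:60199089-60222581, minus strand), which encodes the SREBP1 factor described above, read 448, 343 and 339 in Wt and 251, 196 and 199 in mutant mice. Every mutant mouse was below every Wt mouse, with a wide gap between 251 and 339. The means were 376 ± 61.7 and 216 ± 30.9 (SD, n = 3), and the log2 difference was -0.80 (SE 0.16, 95% interval -1.17 to -0.43, limma adjusted p = 0.0304). The call was lost when any 1 of 5 mice was left out, at log2 differences of -0.67, -0.86 and -0.87 without Wt mouse 1, 2 or 3 (limma adjusted p = 0.0613, 0.0877 and 0.0708) and of -0.74 and -0.75 without mutant mouse 2 or 3 (adjusted p = 0.118 and 0.0919). It held without mutant mouse 1, at -0.91 (limma adjusted p = 0.0201). *Srebf1* exons are 58.4% G and C, more than 92.1% of the genes tested, and with a correction for GC content the difference was -0.58 (limma adjusted p = 0.0817). It overlaps *Rai1* on the opposite strand by 109 exonic bases, and *Rai1* was present at 0.185 times the level of *Srebf1*. Strandedness of the counting is not given in the sources used here.

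*Mlxipl* (chr5:135089890-135138382, plus strand), the gene of ChREBP, read 146, 118 and 102 in Wt and 150, 107 and 98.6 in mutant mice. The genotypes overlapped fully. The log2 difference was -0.05 (SE 0.20, 95% interval -0.53 to 0.43, limma adjusted p = 0.891). Its sign was the opposite under 5 of the 20 alternative settings.

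**Figure D2:**
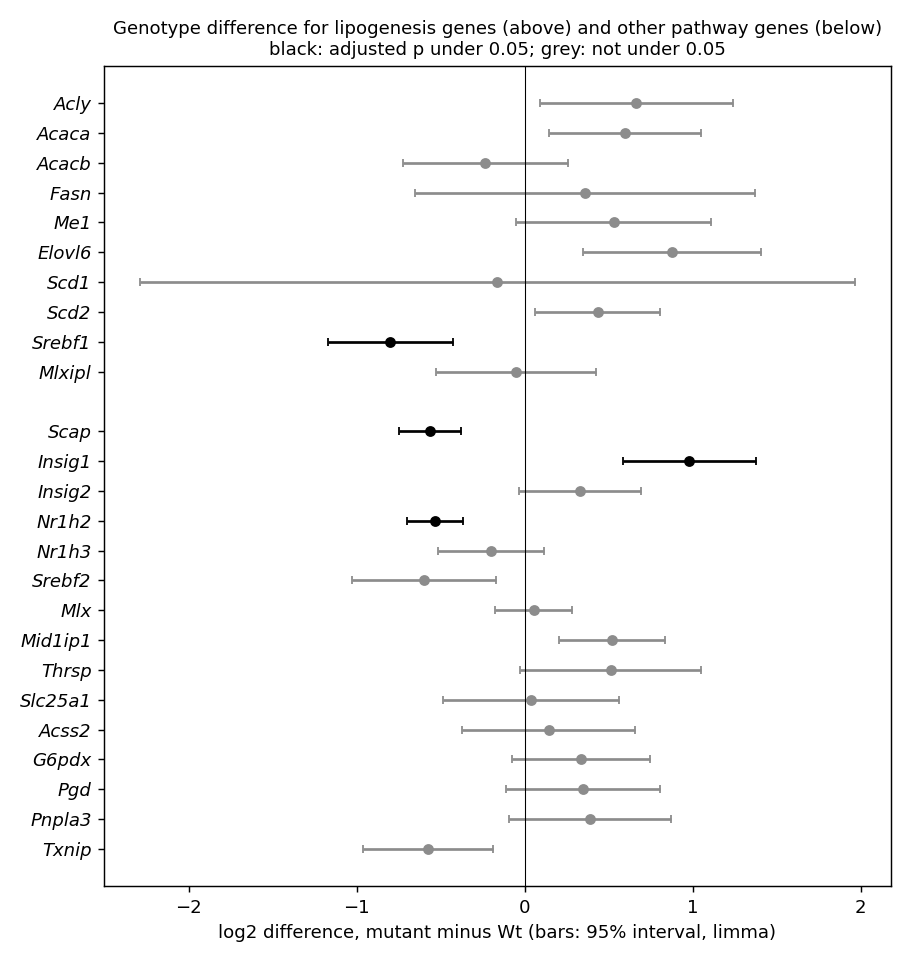
Log2 difference, mutant minus Wt, with the 95% interval of limma for the 10 genes (upper block) and 15 other genes of the pathway (lower block); black marks an adjusted p under 0.05. Srebf1 at -0.80, Scap at -0.56, Nr1h2 at -0.53 and Insig1 at 0.98 are black, and Elovl6 at 0.88 is the farthest of the grey points.

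Over the 10 members the median log2 difference was 0.40, against -0.05 over all genes tested, with 6 positive and 4 negative. At an unadjusted p under 0.05 the members numbered 5 of 10 (*Acly*, *Acaca*, *Elovl6*, *Scd2* and *Srebf1*), against 24.2% of all genes tested. Of these 5 only *Srebf1* was lower. DESeq2 on the recovered reads called the same 5 members, beside 12.6% of the genes it tested.

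The distance between *Srebf1* and the enzyme genes can be read within a mouse, as a description of the same values. The ratio of *Fasn* to *Srebf1* reads was 19.99, 17.45 and 17.68 in Wt and 48.28, 36.56 and 39.05 in mutant mice, 2.25 times higher on average. For *Elovl6* to *Srebf1* it was 0.285, 0.272 and 0.287 in Wt and 1.04, 0.782 and 0.896 in mutant mice. The Wt values of the latter lay within a narrow band although each gene alone was higher in mouse 1, and the lowest mutant ratio was well above that band. These pairs were not planned, and how often such ratios separate the genotypes over all genes was not tested. The ratios were not corrected for GC content. With that correction the log2 differences of the single genes were 0.58 for *Fasn*, 0.80 for *Elovl6* and -0.58 for *Srebf1*.

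**Figure D3:**
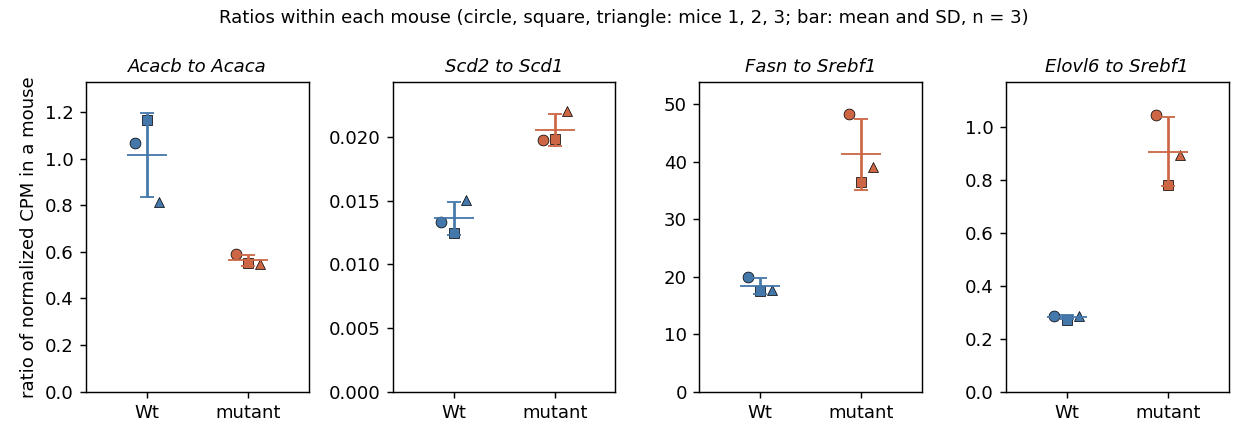
Ratios of normalized CPM within each mouse for Acacb to Acaca, Scd2 to Scd1, Fasn to Srebf1 and Elovl6 to Srebf1, with the mean and SD of 3 mice per genotype and linear axes from 0. In each panel the mutant and Wt mice do not overlap: Acacb to Acaca is lower in mutant mice and the other ratios are higher.

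Mice of one genotype also differed from each other in a shared way. Mouse 1 was the highest of its genotype in both Wt and mutant mice for 10 of 10 members, against 29.7% of all genes tested. On the log2 scale *Fasn* lay 0.39 above the Wt mean in Wt mouse 1 and 0.47 above the mutant mean in mutant mouse 1, while *Srebf1* lay 0.26 and 0.23 above. The median coefficient of variation of the members was 18.5% in Wt and 22.5% in mutant mice, against 12.1% and 12.6% for the 1789 tested genes with a mean of at least 100. Summed adipocyte markers were highest in the same mice (35122 in Wt mouse 1 and 35398 in mutant mouse 1), and summed lymphocyte markers were lowest in them (335 and 5.50). The numbers come from the sample titles, and the part of these differences in the members' levels was not tested. Without both mice numbered 1, limma called 4 members (*Acly*, *Elovl6* and *Me1* higher, *Srebf1* lower), beside 13.6% of all genes tested, an alternative chosen after seeing the data.

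**Figure D4:**
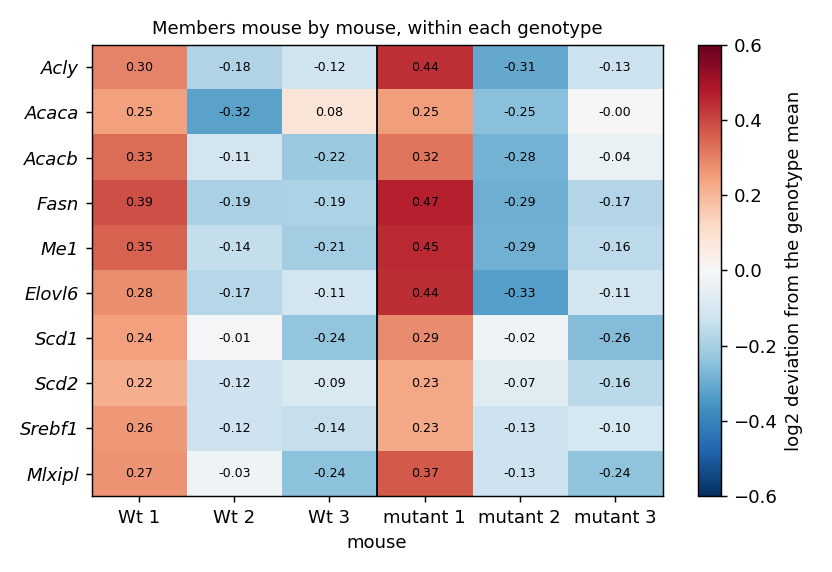
Log2 deviation of each gene from the mean of its genotype in each mouse; red is above and blue below the mean. Both mice numbered 1 are red for all 10 genes, from 0.22 to 0.47, and mice 2 are blue for all 10.

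Other genes of the pathway were read from 6 lists with 60 genes, of which 59 were listed and 57 tested. In limma 3 of the 57 were called, 1 higher and 2 lower, a smaller share than the 8.11% of all genes tested. All 3 were in the list of SREBP and ChREBP control, where 5 of 13 genes reached an unadjusted p under 0.05, beside 24.2% of all genes tested, and the median log2 difference was -0.20.

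The 3 called genes were *Insig1*, *Scap* and *Nr1h2*. *Insig1*, which retains the SREBP escort in the endoplasmic reticulum and is itself an SREBP target, read 169, 135 and 138 in Wt and 358, 276 and 246 in mutant mice. It rose in the mutant mice with no overlap, by 0.98 on the log2 scale (SE 0.17, limma adjusted p = 0.0182). *Scap*, the escort itself, read 63.4, 70.6 and 71.4 in Wt and 46.1, 46.9 and 45.4 in mutant mice. It fell by 0.56 on the log2 scale (SE 0.08, limma adjusted p = 0.0090), and its mutant values lay within 2 normalized CPM of each other. *Nr1h2*, the gene of LXR beta, a sterol-sensing receptor that can induce *Srebf1*, read 91.0, 87.3 and 94.8 in Wt and 62.0, 63.6 and 62.7 in mutant mice. It fell by 0.53 (SE 0.07, limma adjusted p = 0.00733), again without overlap. With a correction for GC content the log2 differences of *Scap* and *Nr1h2* were smaller, -0.34 (SE 0.08) and -0.27 (SE 0.07), and neither was called (limma adjusted p = 0.0570 and 0.0860). Centred on adipocyte markers, the differences were about as large as reported, -0.58 for *Scap* and -0.55 for *Nr1h2*, but with larger SEs of 0.25 and 0.23 neither was called (limma adjusted p = 0.466 and 0.442). Left-out mice ended calls with little change in size. Without Wt mouse 2, *Scap* was at -0.54 (limma adjusted p = 0.0557) and *Insig1* at 0.92 (adjusted p = 0.0881). *Insig1* was at 0.94 without Wt mouse 3 and 1.02 without mutant mouse 2 (limma adjusted p = 0.0775 and 0.0702).

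The rest of that list did not pass. *Insig2*, the other retention protein, had a log2 difference of 0.33 (limma adjusted p = 0.244), *Nr1h3*, the gene of LXR alpha, -0.20 (adjusted p = 0.385), and *Mlx*, the partner of ChREBP, 0.05 (adjusted p = 0.751). *Srebf2*, which drives cholesterol synthesis, read 107, 146 and 145 in Wt and 70.8, 90.2 and 101 in mutant mice. All of its mutant values were below all Wt values, with a log2 difference of -0.60 (SE 0.18, limma adjusted p = 0.101).

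Substrate and NADPH supply held 12 genes, all with a positive log2 difference and 0 past the threshold in limma (0 at an unadjusted p under 0.05), with a median of 0.22. *Slc25a1*, the mitochondrial citrate carrier, was at 0.04, *Acss2*, which makes acetyl-CoA from acetate, at 0.14, and *Slc2a4*, the insulin-regulated glucose transporter, at 0.07. The pentose phosphate genes *G6pdx* and *Pgd*, which give NADPH, were at 0.33 (limma adjusted p = 0.288) and 0.35 (adjusted p = 0.322). *G6pdx* overlaps *Ikbkg* on the opposite strand by 418 exonic bases, and *Ikbkg* was present at 0.230 times the level of *G6pdx*. None of the 12 had genotypes that did not overlap.

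Elongation and desaturation outside the members held 11 tested genes, with 0 past the threshold in limma, 0 at an unadjusted p under 0.05 and a median of -0.00. *Elovl5* and the polyunsaturated desaturases *Fads1* and *Fads2* were at -0.14, 0.10 and 0.12. *Elovl3*, an elongase of brown and cold-exposed fat, was below 1 normalized CPM in each mouse and was not tested.

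Partners of acetyl-CoA carboxylase and the AMPK kinase that inhibits it held 10 tested genes with 0 past the threshold in limma, 2 at an unadjusted p under 0.05 and a median of 0.08. Among them *Mid1ip1*, whose protein promotes polymerization of the carboxylase, read 49.9, 48.2 and 41.7 in Wt and 78.3, 65.5 and 58.4 in mutant mice. The genotypes did not overlap, and the log2 difference was 0.52 (SE 0.13, limma adjusted p = 0.0635). Its relative *Thrsp* (Spot14), named for its response to thyroid hormone in liver, read 547, 374 and 388 in Wt and 796, 568 and 508 in mutant mice. Wt mouse 1 was above mutant mouse 3, and the log2 difference was 0.51 (SE 0.22, limma adjusted p = 0.227).

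Other lipogenic targets of SREBP1 and ChREBP held 6 tested genes, with 0 past the threshold in limma, 2 at an unadjusted p under 0.05 and a median of -0.14. *Pnpla3*, a lipid droplet protein induced by both factors, was at 0.39 (limma adjusted p = 0.293) and *Gpam*, the first acyltransferase of triglyceride synthesis, at 0.07 (adjusted p = 0.794). *Txnip*, a glucose-responsive ChREBP target, read 1766, 1409 and 1407 in Wt and 1092, 1034 and 934 in mutant mice. Every mutant mouse was below every Wt mouse, with a log2 difference of -0.58 (SE 0.16, limma adjusted p = 0.0860). *Aacs*, which makes acetoacetyl-CoA from ketone bodies, is named after its values were seen, since its difference was the largest tested in this list. It read 278, 209 and 199 in Wt and 176, 131 and 121 in mutant mice. The genotypes did not overlap, and the log2 difference was -0.68 (SE 0.19, limma adjusted p = 0.0826). Mitochondrial fatty acid synthesis, a separate pathway of other enzymes, held 5 tested genes with 0 past the threshold in limma (0 at an unadjusted p under 0.05) and a median of 0.04.

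Markers of other cell types moved with genotype or with single mice. Of 8 mesothelial markers 7 rose in the mutant mice in limma, led by *Upk3b* at 4.53, *Msln* at 3.49 and *Upk1b* at 3.29 on the log2 scale, and their summed level was 4.72 to 31.6 in Wt and 37.8 to 75.9 in mutant mice. Most of the highest Wt sum was *Krt19* (28.5 in Wt mouse 1), named after its value was seen. Of 8 brown adipocyte markers *Ucp1*, the uncoupling protein, fell by 1.69 on the log2 scale (limma adjusted p = 0.0187), and the sums were 149 to 210 in Wt and 98.1 to 157 in mutant mice. In that list 3 of 8 had a positive log2 difference: *Cox7a1* (0.30), *Dio2* (0.25) and *Ppargc1a* (0.07). Of 8 macrophage markers *C1qa* and *C1qc* fell in limma, with sums of 1395 to 1701 and 1244 to 1400. Only *Mrc1* of that list had a positive log2 difference (0.27), and *Adgre1* was at -0.02, both named after their values were seen. Of 8 skeletal muscle markers *Myh1* rose (4.31), with sums of 10921 to 23391 and 17602 to 27440, and of 2 tested hepatocyte markers *Alb* rose (1.23), with sums of 944 to 1358 and 681 to 1033 over all 6 listed. Most of the hepatocyte sum was *Cyp2e1*, named after its values were seen, with means of 1063 in Wt and 862 in mutant mice, against 21.1 and 50.1 for *Alb*.

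No gene passed among 8 lymphocyte, 8 epithelial, 6 endothelial and 8 preadipocyte markers in limma, where 0, 1, 3 and 3 had an unadjusted p under 0.05. Their sums were 335 to 881 in Wt against 5.50 to 672 in mutant mice for lymphocytes, 7.10 to 87.8 against 4.91 to 24.7 for epithelium, 789 to 865 against 828 to 964 for endothelium, and 771 to 823 against 786 to 1015 for preadipocytes. The epithelial sum of 87.8 was that of Wt mouse 1, against 7.10 and 12.3 in Wt mice 2 and 3. No marker of any list was at 0 in all 6 mice. With values centred on the 10 adipocyte markers, an alternative chosen after seeing the data, *Srebf1* was at -0.82 (limma adjusted p = 0.0242) and was 1 of 10 members called, beside 2.77% of all genes tested. The part of the other cell types in the members' differences was not tested.

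**Figure D5:**
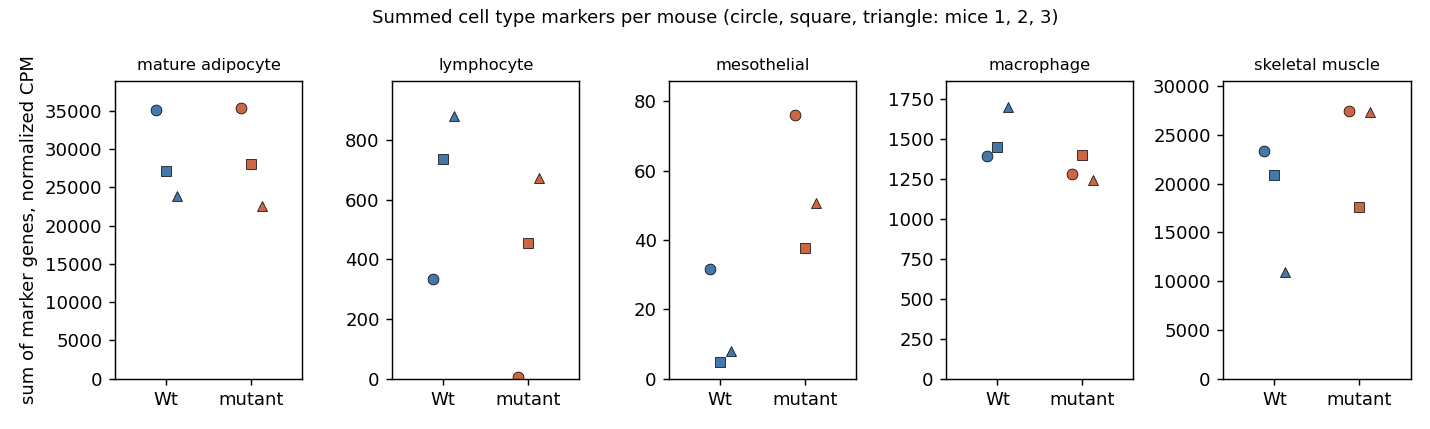
Summed normalized CPM of marker genes of 5 cell types in each mouse, on linear axes from 0; circles, squares and triangles are mice 1, 2 and 3. Adipocyte sums overlap between genotypes and are highest in both mice numbered 1, lymphocyte sums are lowest in the same mice, and mesothelial sums are higher in each mutant mouse than in any Wt mouse.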

How the data were processed

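Inguinal fat RNA of 3 Wt and 3 mutant mice was sequenced, 1 library per mouse. Per the submitters' processing notes, Bowtie2 2.1.0, RSEM 1.2.15, edgeR and build mm10 were used. The deposited signal is 1 normalized value per gene and mouse: the authors divided gene reads by scaled library sizes, here called normalized CPM. Every value was a whole multiple of that of 1 read (100% within 0.01), so reads were recovered, 19607423 to 24228381 per library. Genes were kept by filterByExpr of edgeR 4.0.16 (16868 of 55573) and tested with limma 3.58.1 (trend, two-sided, Benjamini-Hochberg, 5% threshold) on log2(value + 0.5). edgeR's quasi-likelihood test and DESeq2 1.42.0 on recovered reads, other scalings, filters and pseudocounts, GC correction, a replicate block and left-out mice were alternatives. Library shares have Wilson intervals. Gene positions are GENCODE M21 and promoters RefSeq, both GRCm38, and 99.8% of gene IDs matched. Spreadsheet conversion had turned 27 symbols into dates, none of a member. Replicates differed by more than sampling noise (19.3 to 64.7 times, as chi-square over its degrees of freedom). The fit was tested on simulated data. Named genes were the 10 members, chosen list genes whatever their values, up to 3 called genes per list with the largest differences, and the 5 genes nearest to *Fasn*. Members and lists were chosen with earlier results of these data known. Fold changes of low genes are understated by the added 0.5.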

Additional observations from a re-analysis of the deposited data

How the results depend on the processing

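The number of genes called was 1368 (928 higher and 440 lower) as reported, 2118 with DESeq2, 598 with at least 10 reads in every mouse and 467 (418 and 49) centred on adipocyte markers. The split was 1019 and 265 with library-size scaling, 966 and 380 with DESeq2 size factors and 876 and 140 with GC correction. With 1 mouse left out it was 545 to 1043, with fewer samples by construction, and without both mice numbered 1 it was 2326. Of the 10 members 1 was called as reported, 5 with DESeq2 (*Acaca*, *Acly*, *Scd2*, *Elovl6* and *Srebf1*), 2 with library-size scaling (*Elovl6* and *Srebf1*), 0 with GC correction, 0 to 1 with 1 mouse left out and 4 without both mice numbered 1. Of 57 other pathway genes 3 were called as reported, 7 with DESeq2, 6 with library-size scaling, 1 to 4 with 1 mouse left out and 7 without both mice numbered 1. The cause of these shifts was not tested.

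The labels do not say what samples with the same number shared. Their deviations correlated at 0.69, 0.06 and 0.56 across genes (mean 0.43, against -0.20 for the 6 other pairs). Wt mouse 2 correlated best with mutant mouse 3 (0.33). With a replicate block 4063 genes (24.1%), 6 members (*Acaca*, *Acly*, *Scd2*, *Elovl6*, *Me1* and *Srebf1*) and 17 pathway genes were called, and with GC correction and the block 3253, 7 (*Fasn* added) and 17. Centring on adipocyte markers, limma without its trend and leaving out both mice numbered 1 were chosen after seeing the data. For 9 members the direction was the same in all 20 alternatives, *Mlxipl* apart. Each member had at least 1918 reads in every mouse.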

Other observations

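The tested genes outside the members whose profile over the 6 mice was nearest to that of *Fasn*, by the root mean square difference of centred log2 values among 14947 genes, were *Gm44386* (0.0782), *Tkt* (0.0808), *Tcim* (0.0876), *Aldh1a7* (0.0931) and *Tlcd1* (0.0941). *Tkt*, the gene of transketolase of the pentose phosphate pathway, read 894, 649 and 676 normalized CPM in Wt and 1165, 727 and 770 in mutant mice. As with *Fasn*, mouse 1 was the highest of each genotype and the genotypes overlapped. Its log2 difference was 0.24 (SE 0.23, limma adjusted p = 0.531). Among the members *Me1* was nearest to *Fasn* (0.0895), followed by *Scd2* and *Acly* (0.160 each), and *Srebf1* was farthest (0.595). *Lep*, the gene of leptin, read 813, 680 and 549 in Wt and 1120, 1389 and 781 in mutant mice, where Wt mouse 1 was above mutant mouse 3, with a log2 difference of 0.67 (SE 0.25, limma adjusted p = 0.172).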
